A study of Mus musculus with 4 samples.

Results

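The aorta of LysM-DKO mice on normal diet was compared with the aorta of WT mice on normal diet, with 1 single-cell library of each. Of 70795 barcodes in the 4 libraries of the series, 15988 barcodes of these 2 libraries held at least 1000 UMIs (unique molecular identifiers, each standing for 1 captured transcript) and at most 10% mitochondrial UMIs. From them 5 classes were read by summed UMIs of fixed genes. They were macrophages (at least 5 UMIs of C1qa, C1qb and C1qc), endothelial cells (at least 2 of Pecam1 and Cdh5), fibroblasts (at least 3 of Pdgfra and Serpinf1), B cells (at least 2 of Cd79a and Ms4a1) and T cells (at least 2 of Cd3d, Cd3e and Trac). Barcodes that met exactly 1 rule numbered 6209, of which 2828 were from the WT library and 3381 from the LysM-DKO library. A further 135 WT and 224 LysM-DKO barcodes met 2 or more rules and were left out of every class, and 4795 and 4625 met none. The question addressed was which differences between the libraries were shared by all 5 classes and which were seen in macrophages.

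The labels give the genotypes as WT and LysM-DKO without spelling out the alleles, and give neither strain, age nor sex. The title of the series names the epsins, endocytic adaptor proteins encoded by Epn1 and Epn2, which were taken here as the deleted genes. LysM is the lysozyme M gene, Lyz2, whose locus is commonly used to drive Cre recombinase in macrophages, monocytes and neutrophils. Such a deletion should leave the genes intact in endothelial cells, fibroblasts and lymphocytes of the same animal, which was not checked here. These 4 classes would then carry whatever the 2 libraries differ in outside the myeloid lineage. Both aortas were perfused with saline, cut up and digested with collagenases and liberase before capture on the 10x Genomics platform. Nothing in the labels says whether an aorta came from 1 animal or several. With 1 library of each genotype there is no replicate check of any difference below, no test was made, and every interval is a 95% interval for counting error only. The other 2 libraries, WT/ApoE-/- and LysM-DKO/ApoE-/- aortas on western diet, were used for values set side by side; they differ from the first pair in diet, ApoE genotype and depth.

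Epsins bind ubiquitin, membrane lipid and clathrin, and help to bring ubiquitinated receptors into clathrin-coated pits. Macrophages of the healthy aorta live mainly in the adventitia, clear debris, present antigen on MHC class II and release chemokines when disturbed. Chemokine and immediate early transcripts are also known to be induced while tissue is digested, in any cell class.

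The 2 libraries were of similar size, with 13831 barcodes and 51281643 UMIs in WT and 15826 barcodes and 50662515 UMIs in LysM-DKO. Barcodes that passed the limits had a median of 4167 UMIs in WT and 3404 in LysM-DKO. The libraries shared 55 barcode sequences, of which 17 passed the limits in both. The median mitochondrial share was higher in LysM-DKO in all 5 classes, from 3.10% to 4.28% across the WT classes and from 3.63% to 5.33% across the LysM-DKO classes. No doublet caller was run.

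Macrophages made up 83 of 7758 passing barcodes in WT (1.07%, interval 0.853 to 1.32) and 185 of 8230 in LysM-DKO (2.25%, 1.94 to 2.59). The difference was 1.18 percentage points (0.786 to 1.58). B cells were at 9.40% in WT and 12.4% in LysM-DKO, a difference of 3.0 points (2.03 to 3.96). T cells were at 8.96% and 7.38%, a difference of -1.58 points (-2.44 to -0.734). Endothelial cells (8.93% and 9.94%) and fibroblasts (8.09% and 9.13%) differed by 1.01 and 1.03 points. These shares depend on digestion and capture as well as on the tissue. The macrophage class held a total of 419166 UMIs (WT) and 901062 UMIs (LysM-DKO), against 2563675 to 4808840 in the other classes and libraries, so its ratios carry the widest intervals of the 5.

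**Figure D1:**
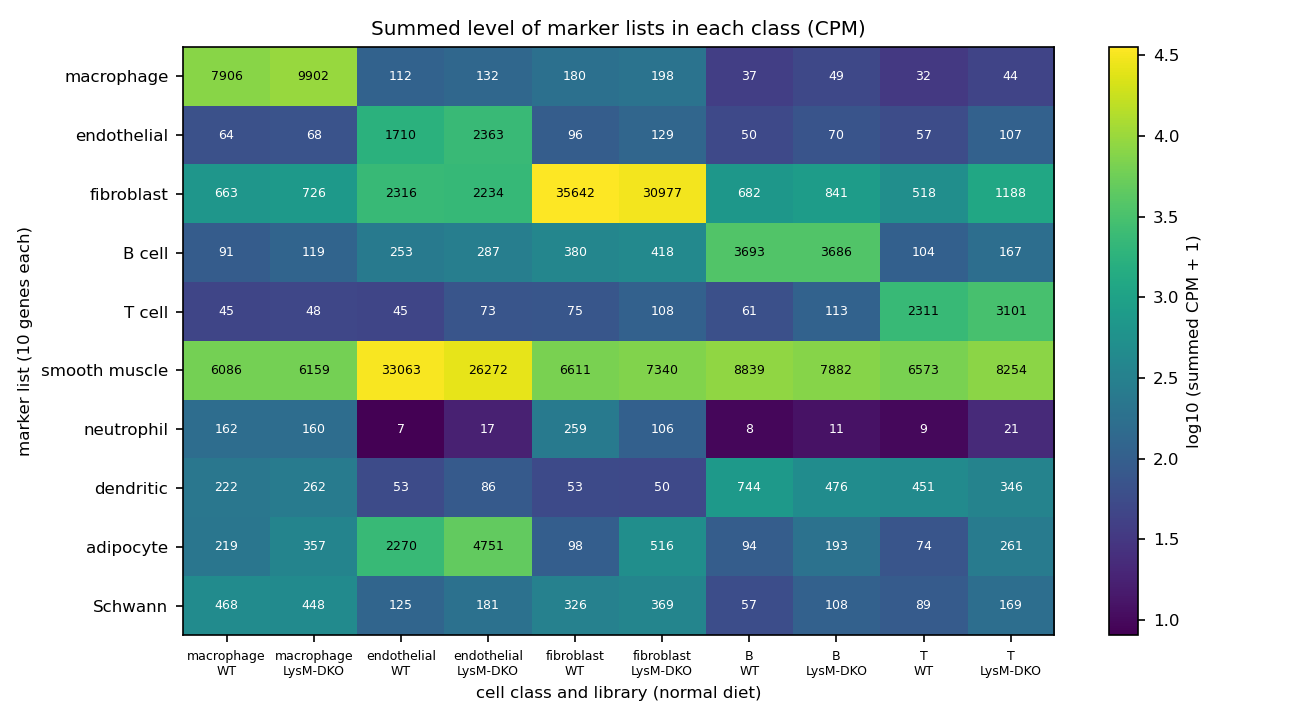
Summed level (CPM, UMIs of a gene scaled to the UMI total of its class and library; colour on a log10 scale) of marker lists of 10 genes each, in rows, for each class and library, in columns. The macrophage list stands at 7906 and 9902 CPM in macrophages and at 198 CPM or less elsewhere, and the smooth muscle list is highest in the endothelial class, at 33063 and 26272 CPM.

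The class names other than endothelial were checked against single markers the rules did not use. In macrophages Csf1r, the receptor for the growth factor these cells depend on, stood at 623 CPM in WT and 621 CPM in LysM-DKO, and Adgre1, which encodes F4/80, at 382 and 426 CPM. Dcn, the fibroblast proteoglycan decorin, stood at 12594 and 9563 CPM in fibroblasts, Cd79b at 311 and 368 CPM in B cells and Cd3g at 158 and 323 CPM in T cells. The endothelial class was not pure. More than 1% of UMIs came from the smooth muscle genes Acta2 and Myh11 in 354 of 693 endothelial barcodes in WT (51.1%) and in 273 of 818 in LysM-DKO (33.4%). The endothelial list stood at 1710 and 2363 CPM in the whole class and at 4598 and 4426 CPM once these barcodes were left out. That list includes the rule genes Pecam1 and Cdh5, so its level is no independent check of the class name. Endothelial values are therefore given with them and, where it matters, without them (339 WT and 545 LysM-DKO barcodes left). In the heat map of marker lists the neutrophil list stood at 162 and 160 CPM and the dendritic list at 222 and 262 CPM in macrophages. In the T class 20 of 695 WT barcodes (2.88%) and 40 of 607 LysM-DKO barcodes (6.59%) held a UMI of Rag1 or Dntt, genes of immature lymphocytes.

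The targeted genes were examined first, in every class. In macrophages Epn1 gave 35 UMIs in WT and 53 in LysM-DKO, or 83.5 and 58.8 CPM. The log2 ratio, here and below LysM-DKO divided by WT, was -0.51, with an interval of -1.15 to 0.15 that includes 0. Epn1 was seen in 30 of 83 WT macrophages (36.1%) and 43 of 185 LysM-DKO macrophages (23.2%), and with every barcode thinned to 1000 UMIs in 8.43% and 6.49%. In the classes that such a driver should spare, the log2 ratios of Epn1 were 0.32 in endothelial cells, 0.16 in fibroblasts, -0.03 in B cells and 0.24 in T cells. Epn2 gave 16 and 30 UMIs in macrophages (log2 ratio -0.22), too few for the limits set for a measured gene, which were a mean of 50 CPM in the class and 20 UMIs over both libraries. In the endothelial class Epn2 stood at 109 and 108 CPM. Epn3 gave 1 UMI in WT macrophages and 0 in LysM-DKO macrophages. Epn1 transcript was thus still counted in LysM-DKO macrophages. A fall of its summed level beyond the lower bound of -1.15 lies outside counting error, and a smaller fall was not detectable at this depth. The interval of Epn2 ran from -1.12 to 0.78, and its ratio was -0.57 without smooth muscle-rich barcodes. In western diet macrophages the log2 ratio was -0.24 for Epn1 (186 and 28 UMIs) and -1.13 for Epn2 (103 and 8 UMIs). Transcript 3' of a deleted part can still be counted, so these values do not check the deletion itself.

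Lyz2, the gene whose locus commonly carries the driver, was lower in LysM-DKO macrophages. It stood at 3786 CPM in WT (1587 UMIs) and 1084 CPM in LysM-DKO (977 UMIs), a log2 ratio of -1.80 (-1.92 to -1.69). It was seen in 79 of 83 WT macrophages (95.2%) and 118 of 185 LysM-DKO macrophages (63.8%), or 90.4% and 44.3% after thinning, at median depths of 4697 and 4566 UMIs. In the classes that should lack it, Lyz2 was seen in 1.78% to 3.90% of WT barcodes and 1.33% to 1.96% of LysM-DKO barcodes. Per macrophage the median was 3325 CPM (quartiles 1941 and 5784) in WT and 698 CPM (0 and 1970) in LysM-DKO. The ranges overlapped, from 0 to 13677 CPM in WT and from 0 to 7019 CPM in LysM-DKO. In the western diet pair the log2 ratio of Lyz2 in macrophages was -2.34 (-2.47 to -2.22). Lyz1, the neighbouring lysozyme gene, went the other way, from 32 to 198 UMIs (76.3 and 220 CPM, log2 ratio 1.51, 0.98 to 2.11), and 2.74 in the western diet pair. One barcode held 15 of the 32 WT UMIs of Lyz1. The 2 genes lie side by side on the minus strand, Lyz2 at chr10:117277331-117282321 and Lyz1 at chr10:117287797-117292868 (GRCm38, GENCODE M21), and are similar enough in sequence that reads may be hard to assign between them. Of 45 genes within 1 Mb of Lyz2, 6 were measured in macrophages. The other 4 had log2 ratios of -0.11 (Cct2), -0.01 (Cpsf6), -0.09 (Mdm2) and -0.29 (Rap1b, -0.45 to -0.14), all smaller in size than those of the lysozyme pair.

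The other genes of the coat that epsins work with differed little. Of 19 genes for epsins, clathrin, the AP-2 adaptor and their partners, 14 were measured in macrophages and 10 had ratios above 0, where 49% of all 2814 measured genes did, and the list median was 0.04. The clathrin chains Clta and Cltc stood at log2 ratios of 0.00 and 0.03, the clathrin assembly protein gene Picalm at 0.03, and the cargo adaptor gene Dab2 at -0.30. Ap2s1, the small subunit of AP-2, was the only member past 2-fold, at 20 and 97 UMIs (47.7 and 108 CPM, 1.15, 0.47 to 1.95). Its WT level was under 50 CPM, so it met the limit for a measured gene only through LysM-DKO. The medians of the list in the other classes were 0.10 in endothelial cells, 0.09 in fibroblasts, -0.03 in B cells and 0.16 in T cells.

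Across all measured genes, 46 of 2814 were more than 2-fold higher in LysM-DKO macrophages (1.63%) and 42 more than 2-fold lower (1.49%). In the other classes fewer genes passed 2-fold. Endothelial cells had 27 of 3309 higher (0.816%) and 2 lower (0.0604%). Fibroblasts had 24 of 3080 higher (0.779%) and 8 lower (0.26%). B cells had 13 of 3035 higher (0.428%) and 25 lower (0.824%). T cells had 42 of 3000 higher (1.4%) and 14 lower (0.467%). Because the other classes held more barcodes and so more UMIs in all, their summed UMIs were also thinned to the macrophage totals. The counts higher and lower then came to 41 and 9 in endothelial cells, 35 and 21 in fibroblasts, 28 and 36 in B cells and 66 and 21 in T cells. With the summed totals matched, the T class thus held about as many 2-fold genes as the macrophage class. The number of barcodes behind the sums was not matched (83 and 185 macrophages, 695 and 607 T cells). The share of measured genes with a ratio above 0, against which the counts of list members are to be read, was 49% in macrophages, 46.9% in endothelial cells, 48.9% in fibroblasts, 48.8% in B cells and 60% in T cells. T cells thus leaned to one side as a whole, with a median log2 ratio of 0.07, while the ribosomal protein genes leaned the other way (1 of 79 above 0, median -0.38).

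The first group of interest was the shifts shared by all classes. Of 1745 genes measured in all 5, 191 (10.9%) were higher and 129 (7.39%) lower in LysM-DKO in every class, but most by little. Only mt-Nd3 was past 1.5-fold in all 5 (1 of 1745, 0.0573%, lower), and no gene (0%) was past 1.5-fold higher in all 5. The count of 0 higher genes rests on a narrow margin: Fabp4, the nearest, had a smallest log2 ratio of 0.584, just under 1.5-fold, and 1 or 2 genes passed higher under 9 of the alternatives, median-ratio scaling and a limit of 500 UMIs among them. With a limit of 20% mitochondrial UMIs, or with equal weight for each barcode, mt-Nd3 no longer passed in all 5. The gene mt-Nd3 encodes a small subunit of respiratory complex I on the mitochondrial genome. It stood at 1260 and 787 CPM in macrophages, 1327 and 711 in endothelial cells, 993 and 550 in fibroblasts, 1240 and 760 in B cells and 1118 and 726 in T cells, in each case WT first. These log2 ratios ran from -0.90 (endothelial) to -0.62 (T), and the barcodes of no class gave -0.80. The difference was thus of nearly the same size in macrophages and in the other classes. The other mitochondrially encoded genes leaned the other way. Of the 13, 10 to 12 were higher in LysM-DKO in each class, and mt-Co3, a subunit of cytochrome oxidase, had log2 ratios from 0.23 to 0.35. In the western diet pair mt-Nd3 was higher in the LysM-DKO macrophages, at 1.68.

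Smaller shared differences, short of 1.5-fold in at least 1 class, were seen for genes lower in LysM-DKO in every class. Gas5, a growth-arrest long noncoding RNA that hosts small nucleolar RNAs, had log2 ratios of -0.47 in macrophages, -0.46 in endothelial cells, -0.63 in fibroblasts, -0.47 in B cells and -0.79 in T cells. Nop58, a core protein of those small nucleolar particles, ran from -0.39 in macrophages to -0.84 in endothelial cells, although its macrophage interval (-0.97 to 0.22) includes 0. The inducible chaperone gene Hspa1a ran from -0.33 in T cells to -1.29 in B cells, and its endothelial ratio of -0.52 was -0.13 without smooth muscle-rich barcodes. The immediate early gene Fos, an AP-1 subunit, ran from -0.19 in T cells to -0.60 in endothelial cells (-0.34 without those barcodes). Slc1a5, a glutamine transporter gene, ran from -0.28 in endothelial cells to -1.26 in B cells, and its endothelial ratio was -0.035 without those barcodes. The endothelial part of the Slc1a5 and Hspa1a differences was thus small once smooth muscle-rich barcodes were left out, while Gas5 stayed at -0.44 and Nop58 at -0.48. The immediate early list as a whole had 14 of 16 members lower in macrophages, 18 of 18 in endothelial cells, 16 of 18 in fibroblasts and 15 of 17 in B cells, with medians of -0.27, -0.25, -0.22 and -0.19, where 51%, 53.1%, 51.1% and 51.2% of all measured genes were lower. Without smooth muscle-rich barcodes 15 of 17 were lower in endothelial cells (median -0.16). In T cells 12 of 16 members were higher (median 0.16), so this lean was not shared by all 5. The typical macrophage did not show it: the summed list was lower over the class (14923 and 12701 CPM), but its median per macrophage was 12641 CPM in WT and 12778 CPM in LysM-DKO. In western diet macrophages Gas5 (0.54), Hspa1a (0.76) and Fos (0.11) were on the other side of 0.

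Genes higher in LysM-DKO in every class included products of other cells of the wall and the fat around it. Fabp4, a fatty acid binding protein of adipocytes and capillary endothelium, stood at 203 and 305 CPM in macrophages (log2 ratio 0.58), 2232 and 4651 in endothelial cells (1.06), 90.7 and 413 in fibroblasts (2.19), 88.5 and 172 in B cells (0.96) and 70.4 and 233 in T cells (1.72). One LysM-DKO fibroblast barcode held 785 of the 1515 Fabp4 UMIs of its class, and without the top barcode of each library the fibroblast ratio was 1.23. Without smooth muscle-rich barcodes the endothelial ratio of Fabp4 was 0.50. Postn, the matrix protein periostin, ran from 0.44 in endothelial cells to 1.10 in macrophages, and without the smooth muscle-rich barcodes it passed 1.5-fold in all 5 classes (1 of 1664 genes, 0.0601%). Sparc, another secreted matrix protein, ran from 0.41 to 0.85, and Ifi27l2a, an interferon-induced gene, from 0.46 in macrophages to 1.62 in T cells. Rgs5, a marker of pericytes and some smooth muscle, was at 1.21 in macrophages and 0.27 to 0.75 in the other classes, but at -0.06 in the barcodes of no class. Postn and Sparc are known as products of mesenchymal cells. Igkc, the immunoglobulin kappa constant gene of B cells, moved the same way in classes that should lack it, being seen in 34.3% and 62.6% of endothelial barcodes and 35.8% and 67.2% of T cell barcodes, WT first. The part of free RNA in the genes that were higher in every class was not tested. In western diet macrophages Postn (-0.71), Sparc (-2.07), Rgs5 (-0.60) and Fabp4 (-0.19) were lower in LysM-DKO, while Ifi27l2a was again higher (0.89).

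**Figure D2:**
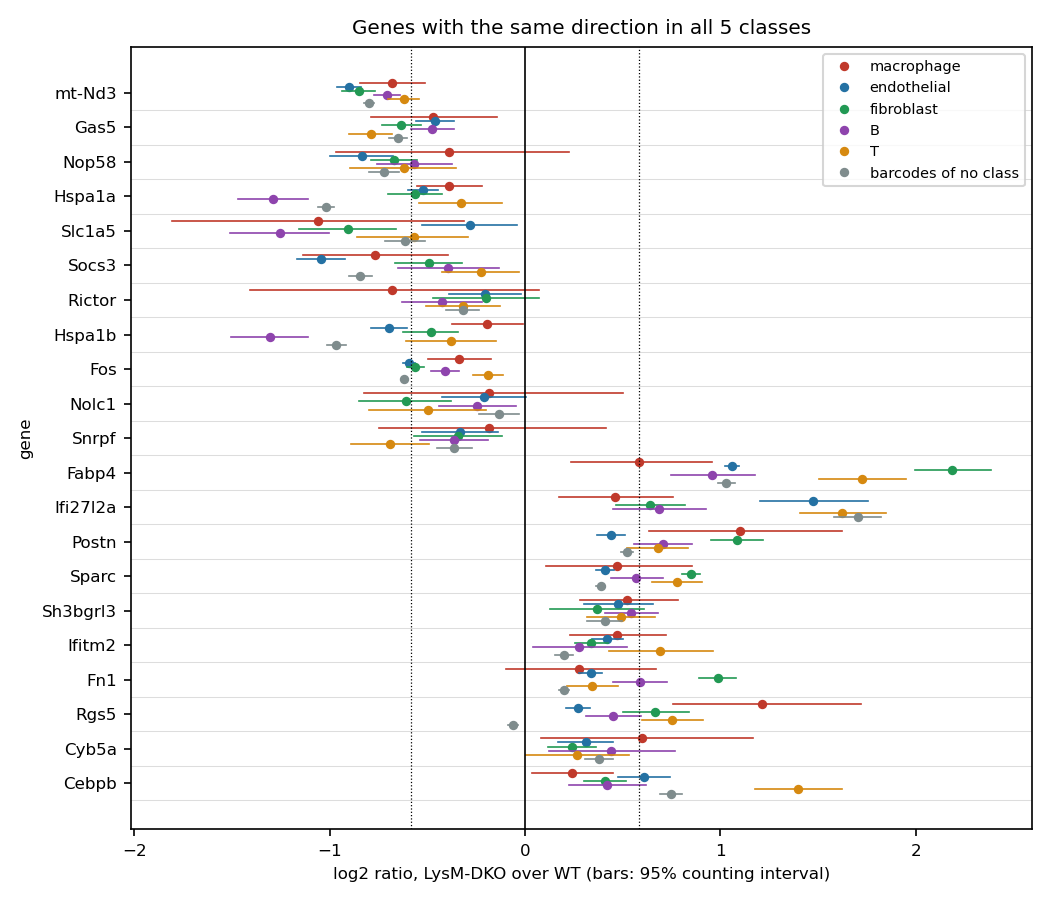
Log2 ratio, LysM-DKO divided by WT (x axis; bars, 95% counting interval) for mt-Nd3 and genes with the same sign in all 5 classes, ranked by the smallest of their 5 ratios, in 5 classes and in the barcodes of no class; dotted lines mark 1.5-fold. The points of mt-Nd3 all lie between -0.90 and -0.62, while those of Fabp4 spread from 0.58 to 2.19.

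The second group was the shifts seen in macrophages. Of the 46 genes past 2-fold higher in macrophages (1.63% of those measured), 27 were within 1.5-fold in every other class where they could be measured, but only 5 of these were measured in all 4 other classes and 15 in none. Of the 42 lower genes (1.49%), 32 were within 1.5-fold elsewhere, with 3 measured in all 4 classes and 20 in none. The strict comparison thus rests on 8 genes, some of which met the limit of 50 CPM only through the library where they were high. The 5 higher ones were Lman2, H2afj, Pgls, Crem and Cox5b, with log2 ratios of 1.03 to 1.17 in macrophages. In WT macrophages Lman2 (31.0 CPM), Pgls (35.8) and Crem (45.3) were under that limit, so a difference was a condition of their being counted, as it was for Galnt2, at 46.6 CPM in LysM-DKO. Lman2, a cargo receptor of the secretory pathway, had 13 and 65 UMIs (1.17, 0.34 to 2.20), and Crem, a cAMP-responsive transcription factor, had 19 and 87 UMIs (1.06). The 3 lower ones were Gem (-1.38), Galnt2 (-1.17) and Ccnd2 (-1.07). Gem, a small GTPase, rested on 1 WT barcode that held 39 of its 81 UMIs, and without the top barcode of each library its ratio was -0.55. Ccnd2, a G1 cyclin, had 96 and 98 UMIs (229 and 109 CPM) and lay close to 0 in the other 4 classes. With so few UMIs, the lower bounds of the 5 higher genes reached down to within 1.5-fold.

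Among the genes measured in macrophages alone, the chemokine Ccl8, which attracts monocytes and lymphocytes, had the largest ratio. It stood at 188 CPM in WT (79 UMIs) and 989 CPM in LysM-DKO (891 UMIs), a log2 ratio of 2.38 (2.06 to 2.74). It was seen in 16 of 83 WT macrophages (19.3%) and 78 of 185 LysM-DKO macrophages (42.2%), and in 9.64% and 29.2% after thinning. Outside macrophages Ccl8 was scarce, but it did not stay level there: it was seen in 0.577% and 2.32% of endothelial barcodes, 0.274% and 2.65% of B cells, 0.432% and 3.13% of T cells, and 4.62% and 7.19% of fibroblasts. In the barcodes of no class its ratio was 3.99. In macrophages the ratio held without the top barcode of each library (2.66), and in the western diet pair it was 0.82. Clec10a, a lectin of alternatively activated macrophages and dendritic cells, had 36 and 184 UMIs (85.9 and 204 CPM, 1.23, 0.73 to 1.81), and 2.22 in the western diet pair. Wfdc17, a secreted inhibitor of inflammatory signalling, had 102 and 472 UMIs (1.10), and Lst1, a leukocyte gene of the MHC class III region, 39 and 176 (1.06). In macrophages the ratio of Lst1 was -0.13 once every barcode was thinned to 1000 UMIs. Below the limits, Clec10a, Wfdc17 and Lst1 were higher in LysM-DKO in the other 4 classes too. In endothelial cells, T cells and the barcodes of no class, Wfdc17 was at 3.12, 2.68 and 2.80. Lst1 was at 2.56, 1.49 and 1.21 there, and Clec10a at 0.69, 1.94 and 2.29. Genes measured in macrophages alone were named at a mean of at least 100 CPM. Clec10a (85.9 CPM in WT) and Lst1 (93.0) met it only through LysM-DKO. Fabp5, a fatty acid binding protein of lipid-laden macrophages, went from 36 to 997 UMIs (85.9 and 1106 CPM, 3.67), but 546 of the 997 came from 1 barcode and it was seen in 11 of 83 and 35 of 185 macrophages. It was also higher in fibroblasts (0.74). The lymphoid chemokine Cxcl13 went from 22 to 584 UMIs in macrophages, 391 of them from 1 barcode.

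Of the 20 genes lower in LysM-DKO macrophages and measured in no other class, those with the largest ratios at a mean of at least 100 CPM were Lyz2 and 7 others. Ccl3, a chemokine for monocytes and T cells, stood at 4764 CPM in WT (1997 UMIs) and 2176 CPM in LysM-DKO (1961 UMIs), a log2 ratio of -1.13 (-1.22 to -1.04), and at -0.98 without the top barcode of each library. Ch25h, which makes the antiviral oxysterol 25-hydroxycholesterol, had 161 and 99 UMIs (384 and 110 CPM, -1.80) and was seen in 34 of 83 and 37 of 185 macrophages. Areg, an epidermal growth factor family ligand, had 357 and 258 UMIs (852 and 286 CPM, -1.57). These 3 were thus lower per UMI although the LysM-DKO macrophages held more UMIs in all. Cxcl3, a neutrophil chemokine, was at -1.83, with 35 of its 78 WT UMIs in 1 barcode, and Tnfsf9, a costimulatory ligand, at -1.71 (72 and 47 UMIs). Ccl24, an eosinophil chemokine (-1.23), and Ifit2, an interferon-induced gene (-1.15), rested on 62 to 69 UMIs a library, and Ccl24 changed to 0.18 with barcodes thinned to 1000 UMIs. In LysM-DKO Cxcl3 (52.2 CPM), Tnfsf9 (52.2), Ccl24 (69.9) and Ifit2 (68.8) were under 100 CPM, so they met that mean only through WT. In the western diet pair Ccl3 (1.12), Areg (0.97), Tnfsf9 (1.02), Ifit2 (0.53) and Ccl24 (3.78) were higher in LysM-DKO macrophages, opposite in sign to the normal diet pair. Cxcl3 (0.10, on 54 and 10 UMIs) and Ch25h (-0.23, on 192 and 29 UMIs) were near 0 there.

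**Figure D3:**
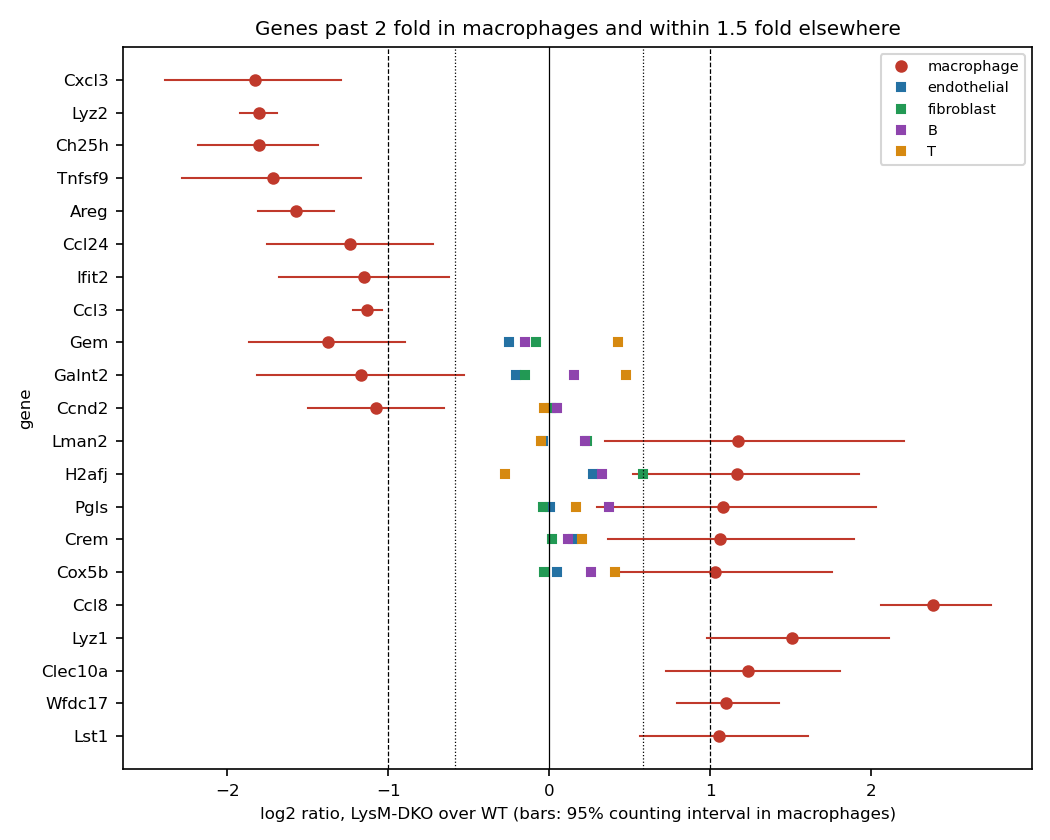
Log2 ratio, LysM-DKO divided by WT (x axis), for genes past 2-fold in macrophages (circles; bars, 95% counting interval) and within 1.5-fold in the other classes where measured (squares); dashed lines mark 2-fold and dotted lines 1.5-fold. Only the 8 genes from Gem to Cox5b carry squares of all 4 other classes; Ccl8, at 2.38, lies farthest to the right.

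The inflammatory list showed the same side of the macrophage comparison as a group. None of 16 measured members was above 0 in macrophages, where 49% of all measured genes were, and the median was -0.49. The summed level of the 18 genes was 79911 CPM in WT and 53404 CPM in LysM-DKO macrophages. Tnf, the tumour necrosis factor gene, stood at 3235 and 1564 CPM (1356 and 1409 UMIs), a log2 ratio of -1.05 (-1.16 to -0.94), and was seen in 64 of 83 and 132 of 185 macrophages against 0.796% and 1.07% of fibroblasts. The neutrophil chemokine Cxcl2 stood at 36742 and 25655 CPM (-0.52), the highest level of the list in both libraries. Ccl4 was at -0.65, the monocyte chemokine Ccl2 at -0.71, the lipopeptide receptor gene Tlr2 at -0.88, and the feedback inhibitors of NF-kB, Tnfaip3 and Nfkbia, at -0.87 and -0.64. Il1b (-0.04), Cxcl1 (-0.03) and Cd14 (-0.05) differed least. For Il1b 1 WT barcode held 63 of 90 UMIs, and without the top barcode of each library the ratio was 1.15.

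Single macrophages spread widely within each library. The summed level of the inflammatory list had a median of 61843 CPM over the 83 WT macrophages and 33147 CPM over the 185 LysM-DKO macrophages, with ranges of 0 to 220080 and 0 to 186077 CPM. The 2 ranges overlapped almost fully, and the difference lay in the middle of the distribution. In the other classes the same list did not go lower throughout. All 6 measured members were higher in endothelial cells (median 0.49), led by Cxcl2 (462 and 1577 UMIs, 1.83), but without smooth muscle-rich barcodes 4 of 7 were (median 0.08; 43.8% of all measured genes). In fibroblasts 5 of 7 were higher (median 0.26), among them Cxcl1 (0.53) and Ccl2 (0.47). In B cells all 3 measured members, Nfkbiz, Tnfaip3 and Nfkbia, were lower (median -0.64). In T cells 4 of 5 were higher (median 0.06). Within 1 library pair Ccl2 thus stood lower in LysM-DKO macrophages (1880 and 1150 CPM) and higher in LysM-DKO fibroblasts (418 and 578 CPM). In the western diet pair all 15 measured members were higher in LysM-DKO macrophages (median 0.65), including Cxcl2 (1.09), while Tnf was at 0.05 (-0.09 to 0.19). The median of all genes measured in western diet macrophages was 0.02. Counts of list members in that pair, here and below, are to be read beside it. The share of all its measured genes above 0 was not counted.

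The promoters of 3 of these genes were searched for GGGNNNNNCC, a loose form of the kB motif bound by NF-kB. The 250 bases upstream of each start are given 5' to 3' on the gene's strand (RefSeq, GRCm38.p6), and capitals mark matches to GGGNNNNNCC on either strand: Tnf at chr17:35202008-35202257 (minus strand) with 1 match, Cxcl2 at chr5:90903649-90903898 (plus strand) with 3 matches, of which 2 overlap, and Ccl3 at chr11:83649379-83649628 (minus strand) with none. Tnf and Ccl3 are the 2 members past 2-fold in macrophages and Cxcl2 the most abundant.
Tnf: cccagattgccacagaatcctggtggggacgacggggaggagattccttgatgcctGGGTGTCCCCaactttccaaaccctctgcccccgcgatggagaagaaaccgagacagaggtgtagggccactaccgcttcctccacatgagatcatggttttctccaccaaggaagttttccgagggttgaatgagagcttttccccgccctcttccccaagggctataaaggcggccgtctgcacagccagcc
Cxcl2: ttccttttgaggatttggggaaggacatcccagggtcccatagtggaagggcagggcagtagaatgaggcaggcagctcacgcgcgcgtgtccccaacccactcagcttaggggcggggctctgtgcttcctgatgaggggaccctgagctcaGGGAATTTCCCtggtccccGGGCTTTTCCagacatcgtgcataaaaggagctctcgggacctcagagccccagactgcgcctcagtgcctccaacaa
Ccl3: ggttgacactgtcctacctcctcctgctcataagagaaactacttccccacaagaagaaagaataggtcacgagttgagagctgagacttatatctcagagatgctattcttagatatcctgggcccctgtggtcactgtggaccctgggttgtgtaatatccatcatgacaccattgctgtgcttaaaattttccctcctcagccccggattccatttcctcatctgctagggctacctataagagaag
The match lay 194 bases before the start in Tnf, and the first match 97 bases before it in Cxcl2. The letters are common: 15046 of 32851 promoters of this length (45.8%) hold them, as do 12 of 17 promoters of 13 inflammatory genes. A match, or its absence in Ccl3, therefore does not show whether NF-kB binds there.

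MHC class II genes stood on the other side. All 6 measured members were higher in LysM-DKO macrophages, where 49% of all measured genes were, with a median of 0.70, and their summed level over the 9 genes of the list was 12699 CPM in WT and 20134 CPM in LysM-DKO. H2-Aa, the alpha chain of I-A, stood at 2672 and 4339 CPM (1120 and 3910 UMIs, 0.70, 0.60 to 0.80). Its partner H2-Ab1 was at 0.87, the beta chain gene of I-E, H2-Eb1, at 0.76, and Cd74, the invariant chain that guides class II through the cell, at 0.54 (5685 and 8290 CPM). H2-Aa was seen in 60 of 83 and 150 of 185 macrophages. Per macrophage the summed level had a median of 12831 CPM in WT and 16220 CPM in LysM-DKO, so the middle of the distribution moved less than the sum. B cells, which also present antigen on class II, gave no such difference: Cd74 stood at 6896 and 6996 CPM and H2-Aa at -0.21, and the list median was 0.04. In the western diet pair all 6 members were again higher in LysM-DKO macrophages, with a median of 2.06.

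Class II transcript was also higher in LysM-DKO classes that make little of it. The summed level of all 9 genes of the list was 198 and 591 CPM in endothelial cells (324 and 1111 without smooth muscle-rich barcodes), 97.8 and 230 CPM in T cells and 91.0 and 163 CPM in fibroblasts. In endothelial cells Cd74 stood at 78.8 and 223 CPM. The other 3 members that met the limits there did so through LysM-DKO, being under 50 CPM in WT: H2-Aa stood at 40.3 and 121 CPM, H2-Ab1 at 31.8 and 109 and H2-Eb1 at 33.5 and 113. The median over these 4 (1.67, or 1.98 without smooth muscle-rich barcodes) is therefore a description of members that the limits favoured. Cd74 was seen in 85 of 693 WT and 165 of 818 LysM-DKO endothelial barcodes, and stood at 1.40 in T cells and 0.68 in fibroblasts, where it too met the limits only through LysM-DKO. Some transcripts found in macrophages were also higher in the LysM-DKO endothelial class, but the macrophage list as a whole differed less. Ctss, the lysosomal protease cathepsin S, went from 9 to 108 UMIs there, Csf1r from 8 to 30 and Adgre1 from 0 to 13, while the summed macrophage list was 112 and 132 CPM. That sum includes C1qa, C1qb and C1qc, which the class rules keep under 5 UMIs in each endothelial barcode. With the class rules at double the UMIs the endothelial median of the class II list was 0.46. The part of macrophage transcript in the endothelial difference was not tested further. The MHC class I list leaned the same way in every class, with medians of 0.36 in macrophages (6 of 6 higher), 0.41 in endothelial cells (5 of 5; -0.05 without smooth muscle-rich barcodes), 0.19 in fibroblasts (4 of 4), 0.14 in B cells (8 of 8) and 0.19 in T cells (7 of 9). H2-K1, a classical class I heavy chain, ran from 0.19 in fibroblasts to 0.56 in macrophages.

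Promoters of class II genes share a Y box, an inverted CCAAT sequence. The 250 bases before the start of 2 members whose ratios were close to each other are given 5' to 3' on the gene's strand (RefSeq, GRCm38.p6), H2-Aa at chr17:34287824-34288073 (minus strand) and H2-Eb1 at chr17:34305617-34305866 (plus strand), with capitals for matches to CTGATTGG on either strand.
H2-Aa: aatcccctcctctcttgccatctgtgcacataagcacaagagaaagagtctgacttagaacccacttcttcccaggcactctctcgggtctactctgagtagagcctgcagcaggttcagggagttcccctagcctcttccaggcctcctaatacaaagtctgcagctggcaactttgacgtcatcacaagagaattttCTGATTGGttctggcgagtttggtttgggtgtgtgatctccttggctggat
H2-Eb1: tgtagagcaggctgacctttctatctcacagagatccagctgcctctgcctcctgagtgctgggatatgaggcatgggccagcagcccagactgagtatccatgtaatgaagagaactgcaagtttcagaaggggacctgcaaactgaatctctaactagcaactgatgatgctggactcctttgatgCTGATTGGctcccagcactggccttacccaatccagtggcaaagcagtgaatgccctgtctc
The match lay 51 bases before the start in H2-Aa and 62 in H2-Eb1. It occurred in 3 of 7 promoters of 6 class II genes and in 1258 of 32851 promoters overall (3.83%).

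**Figure D4:**
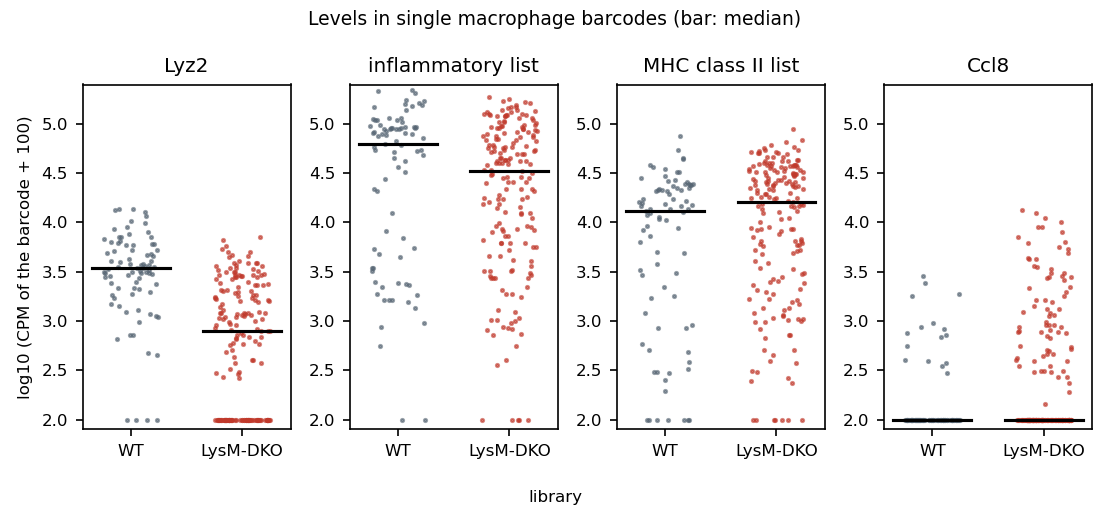
Level in single macrophage barcodes (y axis, log10 of CPM of the barcode plus 100) of Lyz2, the summed inflammatory list, the summed MHC class II list and Ccl8, in the WT (83) and LysM-DKO (185) libraries; bars mark medians. The Lyz2 median lies at 3325 CPM in WT and 698 CPM in LysM-DKO, and the 2 clouds overlap in all 4 panels.

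Genes of lipid handling, the subject named in the title of the series, showed no common direction in macrophages on normal diet. Of 7 measured genes of cholesterol efflux and LXR targets 3 were higher, with a median of -0.04. Abca1, the transporter that loads cholesterol on lipid-poor apolipoprotein, was at 0.35 (339 and 434 CPM), and Apoe at -0.12 (6573 and 6037 CPM). Abcg1, the transporter to mature HDL, had only 12 and 39 UMIs in macrophages, below the limits for a measured gene. Of 7 measured lipoprotein uptake receptors 3 were higher (median -0.16). The scavenger receptor genes Cd36 (568 and 334 CPM, -0.77, -1.02 to -0.51) and Msr1 (-0.69) were lower, as was the large endocytic receptor gene Lrp1 (-0.66). Cd36 stood at 0.83 in the endothelial class (0.22 without smooth muscle-rich barcodes). Of 11 measured genes of lipid-associated macrophages 8 were higher (median 0.39). The galectin gene Lgals3 (0.71) and the cathepsin D gene Ctsd (0.78) were higher, whereas the tetraspanin gene Cd9 (-0.94), the lipid droplet gene Plin2 (-0.42) and the lipid receptor gene Trem2 (-0.20) were lower. On western diet 14 of 15 measured members were lower in LysM-DKO macrophages (median -0.36).

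Lysosomal genes leaned higher in LysM-DKO macrophages. Of 17 measured members 14 were above 0, with a median of 0.38, against medians of 0.06 in endothelial cells, 0.09 in fibroblasts, 0.16 in B cells and 0.36 in T cells. Psap, the precursor of the saposins that help to break down sphingolipids, stood at 1095 and 1971 CPM (0.85, 0.70 to 1.0), and Ctss at 649 and 950 CPM (0.55). Psap was also higher in T cells (0.63) and B cells (0.38), so its difference was not confined to macrophages. The resident macrophage list was split, with 8 of 15 measured members higher and a median of 0.01. The mannose receptor gene Mrc1 was at 0.16 and the folate receptor gene Folr2 at 0.20, while Retnla, a marker of alternative activation, was at -0.97 (921 and 469 CPM), Pf4 at -0.61 and the haptoglobin receptor gene Cd163 at -0.43. On western diet 13 of 14 members were higher in LysM-DKO macrophages, with a median of 1.5.

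**Figure D5:**
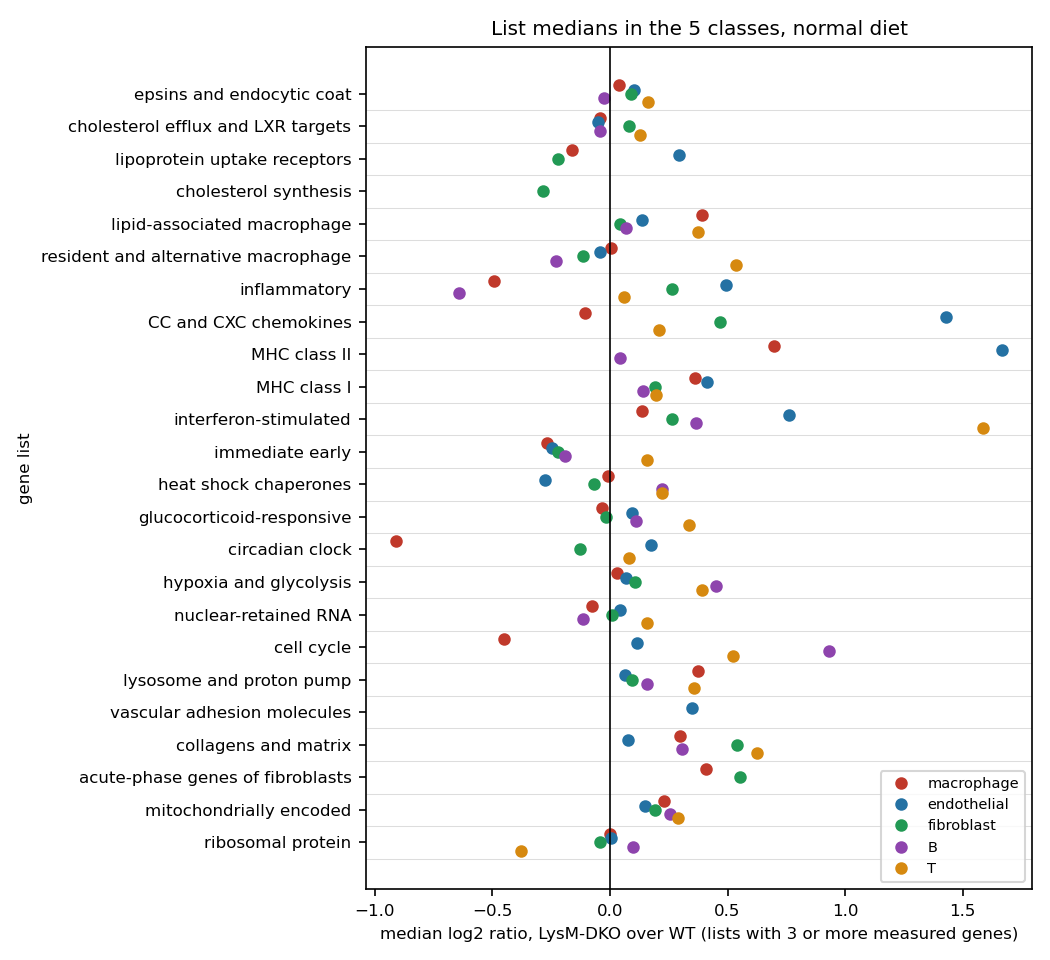
Median log2 ratio, LysM-DKO divided by WT (x axis), of the measured members of each gene list (y axis) in the 5 classes; lists with fewer than 3 measured genes in a class have no point there. The inflammatory median is -0.49 in macrophages and 0.49 in endothelial cells, and the MHC class II median is above 0 in the 3 classes shown.

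In the other classes too, some genes passed 2-fold and stayed within 1.5-fold in every other class where measured. Several of them also moved the same way in classes where they were below the limits. In fibroblasts the acute-phase genes were higher in 8 of 8 measured members (48.9% of all measured genes were above 0), with a median of 0.55, but Saa3 and Serpina3n met the limits only through LysM-DKO. Saa3, serum amyloid A3, went from 3 to 764 UMIs (7.41, 6.07 to 9.91), but all 764 came from 12 of 751 barcodes. Apod, the lipocalin apolipoprotein D, went from 207 to 938 CPM (2.18), with 1530 of 3436 UMIs in 1 barcode and 1.84 without the top barcode of each library. Comp, a matrix protein of tendon and cartilage, was at 1.44, and at 1.36 in the barcodes of no class. In T cells Cd4 went from 52.1 to 159 CPM (1.61) and was seen in 106 of 695 and 206 of 607 barcodes, while Cd8a was seen in 73 and 51. The T classes of the 2 libraries thus differed in the share of barcodes with Cd4. Below the limits, Cd4 was also higher in B cells (4.04) and macrophages (2.25, on 2 and 25 UMIs). It was lower in endothelial cells (-0.55) and fibroblasts (-0.09). Beside it Tbc1d4 (1.31), Itga4 (1.12) and Ugcg (-1.15) differed, and the part of subset mix in them was not tested. In B cells the signalling adaptor gene Stap1 (342 and 99.5 CPM, -1.78), Dmxl1 (-1.21) and the transcription factor gene Irf4 (-1.10) were lower. The cell cycle list was higher there in 5 of 5 members, with Mki67 seen in 10 of 729 and 47 of 1020 barcodes. Mki67 and Mcm6 met the limits only through LysM-DKO. A UMI of Rag1 or Dntt was held by 3 of 729 WT (0.412%) and 18 of 1020 LysM-DKO B barcodes (1.76%). Without such barcodes all 48 named ratios past 2-fold stayed past it. The part of subset mix in the B cell differences was not tested. In endothelial cells Ccl21a, a chemokine of lymphatic endothelium, was at 1.49 (0.78 without smooth muscle-rich barcodes) and Rbp7, a retinol binding protein, at 1.39 (0.84). Neither was confined to that class. Ccl21a was at 1.15 in fibroblasts, 1.55 in B cells, 1.70 in T cells and 1.63 in the barcodes of no class. Rbp7 was at 2.52, 1.57, 2.56 and 2.30 there, in the same order.

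Red cell and plasma cell transcripts differed between the macrophage classes as well. Hemoglobin Hbb-bs had 47 UMIs in WT macrophages and 2233 in LysM-DKO macrophages, 932 of them in 1 barcode, and 4 LysM-DKO macrophages had over 1% hemoglobin UMIs against none in WT. Igkc had 38 and 860 UMIs in macrophages, 640 of them in 1 barcode, and its ratio was 3.38 with and 1.52 without the top barcode of each library. Spp1, osteopontin, was lower in the LysM-DKO endothelial class (1155 and 33 UMIs), where 1 WT barcode held 1101. Marco, a scavenger receptor gene, had 20 UMIs in WT macrophages, 19 of them in 1 barcode, and 0 in LysM-DKO macrophages, which allows up to 3.33 CPM there.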

How the data were processed

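The authors deposited UMI counts per gene and barcode as 10x matrices. Counts were made with Cell Ranger, version 6.1.2 per the submitters' processing notes (which also name Seurat 4.1.0 and mm10) and 6.0.1 per the file headers of the normal diet libraries. The barcodes deposited were used as given, with no filter but the 2 limits in the text and no doublet caller. All 32285 features were kept, and 32158 matched GENCODE M21 by gene ID. No column belonged to other samples (0). UMIs were summed per class and library and divided by the class total (CPM). The log2 ratio used 0.5 UMI added to each sum, and its interval is the exact binomial interval given the total. Intervals of shares are exact binomial, and those of differences of shares are Newcombe intervals. A count of 0 was read as allowing 3 counts. The genes of the class rules were left out of the counts of genes, the named genes and the list medians. They were kept in the summed levels of the marker lists. Differences past 2-fold were called.

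Genes were named by rule: the targeted loci, up to 10 per direction with the largest smallest ratio over the 5 classes, up to 8 per direction in macrophages, up to 3 per direction and class elsewhere, and list members. Mitochondrial, ribosomal protein, hemoglobin and immunoglobulin genes were left out of that ranking. mt-Nd3, Hbb-bs, Igkc, Fabp5, Cxcl13 and the Lyz2 neighbours were named after their values were seen. The classes, gene lists and rules were chosen with earlier results of these data known. The alternatives were other limits on UMIs and mitochondrial share, class rules at double the UMIs, barcodes of several rules kept, median-ratio scaling, equal weight for each barcode, thinning, a minimum of 100 CPM and other folds. Leaving out smooth muscle-rich, hemoglobin-rich and Rag1 or Dntt barcodes, and thinning class sums, were chosen after seeing the data. The script was tested on simulated data. Figures were drawn with matplotlib 3.10.9, and values computed with pandas 2.3.3, scipy 1.17.1 and numpy 2.4.6 under Python 3.11.15.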

Additional observations from a re-analysis of the deposited data

How the results depend on the processing

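No paired analysis was possible because each genotype has 1 library and the labels carry no replicate numbers. Of 48 named ratios past 2-fold, 46 to 48 kept their sign under each alternative and 31 to 48 stayed past 2-fold. With each barcode thinned to 1000 UMIs, Lst1 (1.06 to -0.13) and Ccl24 (-1.23 to 0.18) changed sign in macrophages, Lyz2 moved to -1.62 and Epn2 to -1.16. The cause was not tested for these or the following moves.

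Differences in share moved to 2.25 points for endothelial cells without smooth muscle-rich barcodes, to 4.93 for fibroblasts and 1.31 for B cells at most 5% mitochondrial UMIs, to 5.29 for B cells at 2000 UMIs and to -0.44 for T cells at double rule UMIs. Counts past 2-fold, higher and lower, became 70 and 78 in macrophages and 42 and 44 in B cells at most 5% mitochondrial UMIs. With barcodes thinned to 1000 UMIs they became 109 and 69 in macrophages, with 5 lower in endothelial cells and 43 lower in B cells. At 100 CPM, a limit that fewer genes meet, they were 16 and 20 in macrophages and 14 and 3 in fibroblasts. They were 6 and 16 in B cells, 24 and 3 in T cells and 17 higher in endothelial cells. At double rule UMIs endothelial cells had 13 and 5 and T cells 64 higher. With class sums thinned, endothelial cells had 41 and 9, fibroblasts 21 lower, B cells 28 higher and T cells 66 higher. With equal weights endothelial cells had 1 lower, fibroblasts 4 lower and B cells 7 higher. Without smooth muscle-rich barcodes endothelial cells had 7 lower and fibroblasts 5 lower, and with barcodes of several rules kept endothelial cells had 4 lower.

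Genes past 1.5-fold higher in all 5 classes numbered 1 at 500 UMIs, at 20% mitochondrial UMIs, under median-ratio scaling and without smooth muscle-rich, hemoglobin-rich or Rag1 or Dntt barcodes, and 2 with thinning to 1000 UMIs, double rule UMIs or equal weights. Lower ones numbered 0 at 20% mitochondrial UMIs, with equal weights and at 2-fold. Genes higher in every class numbered 94 with thinning, and 101 higher and 76 lower at 100 CPM. Macrophage genes higher and lower numbered 154 and 176 at 1.5-fold, 46 and 61 at most 5% mitochondrial UMIs, 81 and 56 with thinning, and 7 and 18 at 100 CPM.

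The MHC class II median moved in macrophages to 0.85 at most 5% mitochondrial UMIs, 0.44 with thinning and 0.39 with equal weights. In endothelial cells it moved to 2.80 at most 5% mitochondrial UMIs, 0.46 at double rule UMIs and 1.98 without smooth muscle-rich barcodes. In B cells it moved to -0.13 at most 5% mitochondrial UMIs and 0.13 at double rule UMIs. With barcodes of several rules kept it moved to 1.38 in fibroblasts and 2.0 in T cells, and the resident macrophage median to -0.33. The vascular adhesion median of endothelial cells (0.35) moved to 0.16 with thinning, 0.016 at double rule UMIs and -0.31 without smooth muscle-rich barcodes, and the acute-phase median of fibroblasts to 0.69 at double rule UMIs. The hemoglobin median of endothelial cells (1.11), and that of the erythroid list, changed sign to -1.75 at double rule UMIs.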

Other observations

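In the T class the interferon-induced gene Ifi27l2a stood at 73.7 CPM in WT and 227 CPM in LysM-DKO, and was seen in 149 of 695 and 244 of 607 barcodes. In B cells the heat shock genes Hspa1a (-1.29, and -0.99 without the top barcode of each library) and Hspa1b (-1.31) had their largest differences of the 5 classes on the log2 scale, while the chaperone list as a whole had a median of 0.22 there. The collagen and matrix list was higher in LysM-DKO in 15 of 18 members in fibroblasts (median 0.54), 11 of 11 in T cells (0.63) and 8 of 10 in macrophages (0.30). Of all measured genes 48.9%, 60% and 49% were above 0 in these classes. The part of free RNA in the T cell and macrophage values was not tested. In western diet macrophages 15 of 15 members were lower (-2.07). These values carry no replicate check.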
